A study of Homo sapiens with 12 samples.

Results

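TINCR, ACER1, ACER2, AQP3 and AQP7 are 5 genes linked to the water and lipid barrier of the epidermis, and they were followed through 12 RNA-seq libraries of HaCaT, an established human keratinocyte line. They are 5 of the 61498 entries in each deposited count table. The genes were chosen by name from the 1421 entries that lie in chromosome stretches where gene names and reads were taken to match, with their levels in the knockdown cells already known. For these 5 genes, differences between the knockdown cells and the control cells are therefore given as a description without a test, and tests are kept to the exposures.

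The cells were 4 HaCaT derivatives, each expressing 1 short hairpin RNA (shRNA): shNRF2 against NRF2 (NFE2L2, a transcription factor that switches on antioxidant genes), shUTX against UTX (KDM6A, a histone H3 demethylase), shMLL1 against MLL1 (KMT2A, a histone H3 methyltransferase) and shControl, the control hairpin. Every derivative was exposed for 24 h to 100 µM H2O2 or to 25 µg/mL CeO2 nanoparticles, or left untreated, so that each of the 12 combinations had 1 library and none had a replicate. The 3 libraries of a derivative differ in exposure and are not separate knockdowns, and the labels do not say whether they came from separate cultures, so each p-value measures the spread between these libraries only, which may be technical. All of the groups share the same parent line, and the labels name 1 hairpin per target and do not say whether a derivative is 1 clone.

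The epidermis keeps water in with stacked lipid layers and cornified cells that form as keratinocytes mature. TINCR (terminal differentiation-induced non-coding RNA) is a long transcript known in human epidermis for binding the RNA-binding protein STAU1. It is also known there for holding differentiation mRNAs at high levels. Despite its name, the GENCODE and RefSeq annotations used here both class TINCR as protein-coding, and it is counted among the coding genes below. ACER1 and ACER2 are alkaline ceramidases, which split ceramide, a main lipid of the barrier, into sphingosine and a fatty acid. AQP3 and AQP7 are aquaglyceroporins, membrane channels that pass glycerol as well as water; AQP3 is the main one of keratinocytes, and AQP7 is best known for glycerol release from fat cells.

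Total counts ran from 5388335 to 7670446 per library. Levels are given as counts per 1000000 counts of the library (CPM) after TMM scaling, and a count of 0 allows up to 3 counts, which is 0.3805 to 0.5755 CPM in these libraries. Gene names do not match the reads over most of the table: of 682 genes that every cell uses, 411 averaged under 1 CPM and 204 had no count. All 35 such genes inside the 5 matched stretches reached 30 CPM, against 132 of 647 outside them. The stretches were found by that level, so this is no independent check of them. Of the other coding genes, 66.2% of 467 inside averaged at least 1 CPM, against 32.9% of 18704 outside. No marker of keratinocytes, melanocytes, fibroblasts or immune cells on the lists used lies in a matched stretch, so the cell type could not be checked by name. Of the hairpin targets, which also lie outside the stretches, the KMT2A entry had 228 to 565 counts in shMLL1 libraries, against 3283 to 3539 in shControl libraries; it was also lower in shUTX libraries, at 1711 to 1969 counts. The KDM6A entry had 0 or 1 count in shUTX libraries, against 5 or 6 in shControl libraries. The NFE2L2 entry had 0 counts in all 3 shNRF2 libraries, against 12 (H2O2), 16 (CeO2) and 1 (untreated) in shControl libraries, too few to check the label by. In bulk RNA, fewer cells of a type and less RNA per cell cannot be told apart.

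All 5 genes lie in stretches where housekeeping genes had high counts. ACER1 did so only after housekeeping families were added to a first panel, which had left it outside. The levels of the housekeeping genes are CPM of the library totals without TMM scaling. TINCR (ENSG00000223573) is annotated on the minus strand of chromosome 19 (GRCh38, GENCODE 29) from 5558167 to 5578349, 96.6 kb from the ribosomal protein gene RPL36, which averaged 1445 CPM. ACER1 (ENSG00000167769) lies on the same strand of chromosome 19 from 6306142 to 6333629, 45.9 kb from GTF2F1, which averaged 714 CPM. Within 2 Mb of ACER1, 3 of 6 of the genes that every cell uses reached 30 CPM, against 5 of 5 around TINCR, 1 of 1 around ACER2 and 4 of 4 around AQP3 and AQP7. ACER2 (ENSG00000177076) lies on the plus strand of chromosome 9 from 19409059 to 19452020, 28.8 kb from the ribosomal protein gene RPS6, which averaged 3567 CPM. The nearest housekeeping gene on its other side, NDUFB6, lies 13101 kb away. AQP3 (ENSG00000165272; chromosome 9, 33441154 to 33447633, minus strand) and AQP7 (ENSG00000165269; chromosome 9, 33383179 to 33402682, minus strand) lie near each other, 159 and 101 kb from CHMP5, which averaged 204 CPM.

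Of the 5 genes, 3 passed the filter of at least 1 CPM in at least 3 libraries, as did 10800 entries in all. Per kb of exon, the scale on which genes of different length can be compared, AQP3 averaged 91.9 CPM per kb over the 12 libraries, ACER2 9.63 CPM per kb and TINCR 7.33 CPM per kb. ACER1 and AQP7 did not pass: they averaged 0.0111 and 0.0338 CPM per kb, and their levels are described by counts alone. The expressed genes did not share a pattern: TINCR was highest in shNRF2 and stepped down through shUTX and shMLL1 to shControl, ACER2 was highest in shUTX, and AQP3 stood apart in shNRF2 alone.

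TINCR showed the widest range relative to its level. In shNRF2 cells it stood at 61.9 (H2O2), 61.5 (CeO2) and 66.0 CPM (untreated). In shUTX cells the values were 50.1 (H2O2), 29.02 (CeO2) and 30.2 CPM (untreated), and in shMLL1 cells they were 27.7, 20.8 and 23.4 CPM in the same order. In shControl cells TINCR stood at 6.41 (H2O2), 5.44 (CeO2) and 6.97 CPM (untreated), from 39 to 48 counts per library. The 4 derivatives did not overlap at any step of this order, although the lowest shUTX library (29.02 CPM) was close to the highest shMLL1 library (27.7 CPM). The share of all entries that separate at every step was not counted, and TINCR was chosen with these differences known.

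The mean TINCR level was 63.2 ± 2.50 CPM in shNRF2, 36.4 ± 11.9 CPM in shUTX and 24.0 ± 3.47 CPM in shMLL1, against 6.27 ± 0.774 CPM in shControl (SD, n = 3 libraries each, 1 per exposure). The fitted log2 difference from shControl was 3.35 ± 0.18 in shNRF2, 2.52 ± 0.18 in shUTX and 1.93 ± 0.18 in shMLL1 (SE), which is 10.2-fold, 5.74-fold and 3.82-fold. The contrast is largest in shNRF2, where the ratio to the shControl library of the same exposure was 9.66 (H2O2), 11.3 (CeO2) and 9.47 (untreated). Of the 10800 entries, 10.2% lay above shControl without overlap in shNRF2, 17.3% in shUTX and 12% in shMLL1. TINCR and ACER2 are among 249 entries (2.31%) above it in all 3 knockdown derivatives; the choice of these genes used those differences.

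The TINCR count can be set beside the annotation around it, although the positions of its reads were not examined. The GENCODE model of TINCR covers the pseudogene SNRPEP4 (19:5576660 to 5576938, same strand), while the RefSeq gene ends at 5567953, short of it. SNRPEP4 averaged 28.3 ± 6.79 CPM in shNRF2, 32.9 ± 2.15 CPM in shUTX and 33.8 ± 5.30 CPM in shMLL1, against 29.4 ± 9.88 CPM in shControl (SD, n = 3 each). Its log2 difference from shControl was between -0.04 and 0.23 in the 3 knockdown derivatives, and none passed the threshold of an adjusted p of 0.05 (edgeR adjusted p = 0.911 in shNRF2, 0.324 in shUTX and 0.343 in shMLL1). TINCR stood 3.82-fold to 10.2-fold above shControl in the same libraries. These totals do not show which reads make up the TINCR count.

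The tested entries on both sides of TINCR also differed from it. SAFB2, a scaffold attachment factor 8.65 kb away, differed from shControl by -0.09 in shNRF2, -0.06 in shUTX and 0.02 in shMLL1 on the log2 scale, and no difference passed the test (edgeR adjusted p = 0.585, 0.648 and 0.897 in that order). PTPRS, a receptor tyrosine phosphatase 217 kb away, averaged 637 CPM in shNRF2, 117 CPM in shUTX and 317 CPM in shMLL1, against 541 CPM in shControl. It fell in shUTX (log2 difference -2.20 ± 0.09 SE, edgeR adjusted p = 5.49e-10) and in shMLL1 (-0.77 ± 0.09, edgeR adjusted p = 2.98e-05), where TINCR was higher than in shControl; both calls were kept in 18 of 18 other planned settings.

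**Figure D1:**
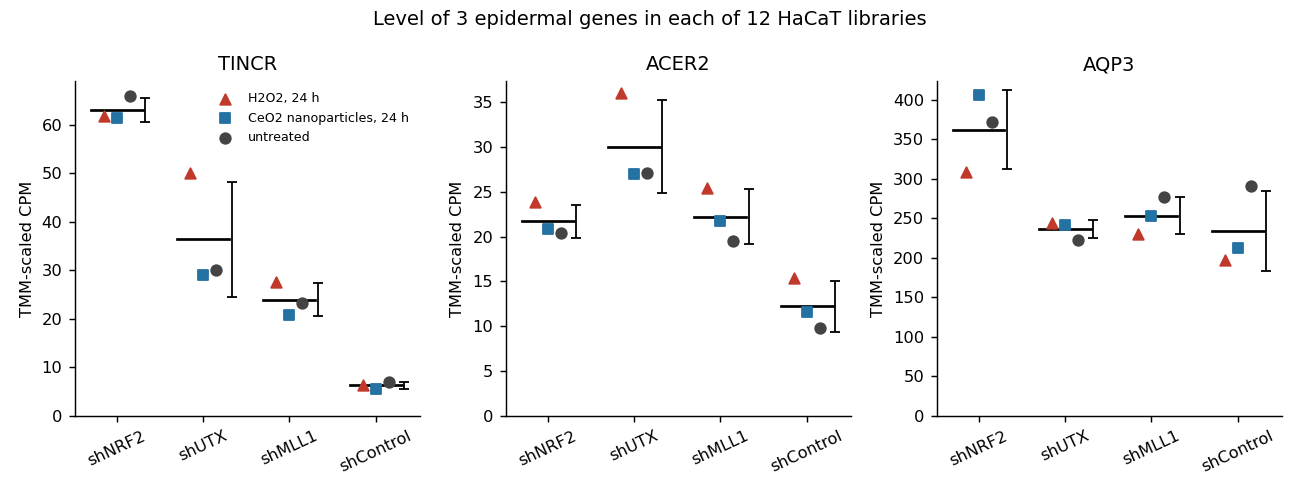
TMM-scaled CPM (vertical axis, linear, from 0) of TINCR, ACER2 and AQP3 in the 4 HaCaT derivatives; each symbol is 1 library, the bar is the mean of the 3 libraries of a derivative and the whisker their SD. TINCR lies above 20 CPM in all 9 knockdown libraries, against at most 6.97 CPM in shControl, and AQP3 stands apart in shNRF2 alone.

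ACER2, the ceramidase of the Golgi, was detected in every library from 63 to 205 counts. It stood at 23.8 (H2O2), 20.8 (CeO2) and 20.4 CPM (untreated) in shNRF2 cells and at 36.04, 26.97 and 27.1 CPM in shUTX cells, in the same order of exposures. In shMLL1 cells the values were 25.5 (H2O2), 21.7 (CeO2) and 19.5 CPM (untreated), and in shControl cells 15.4 (H2O2), 11.6 (CeO2) and 9.76 CPM (untreated). The lowest knockdown library (19.5 CPM) was above the highest shControl library (15.4 CPM), which held for 2.31% of the 10800 entries. All shUTX libraries lay above the other derivatives, and shNRF2 and shMLL1 overlapped. The lowest shUTX library (26.97 CPM) was close to the highest shMLL1 library (25.5 CPM). The share of all entries in which shUTX separates in this way was not counted, and ACER2 was chosen with these differences known.

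The mean ACER2 level was 21.7 ± 1.87 CPM in shNRF2, 30.03 ± 5.20 CPM in shUTX and 22.2 ± 3.03 CPM in shMLL1, against 12.2 ± 2.85 CPM in shControl (SD, n = 3 each). The log2 difference from shControl was 0.84 ± 0.13 in shNRF2, 1.30 ± 0.13 in shUTX and 0.87 ± 0.13 in shMLL1 (SE), or 1.79-fold, 2.46-fold and 1.82-fold. The order of the derivatives thus differs from that of TINCR, which was 1.73 times as high in shNRF2 as in shUTX.

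AL158206.1, a non-coding entry that starts 1.19 kb beyond the 3′ end of ACER2 on the same strand, had a like pattern. It averaged 11.9 ± 0.399 CPM in shNRF2, 19.7 ± 2.24 CPM in shUTX and 15.1 ± 1.82 CPM in shMLL1, against 8.19 ± 2.16 CPM in shControl (SD, n = 3 each). It rose in shUTX (log2 difference 1.28 ± 0.17 SE, edgeR adjusted p = 6.68e-05) and in shMLL1 (0.90 ± 0.17, edgeR adjusted p = 0.00254), and missed the threshold in shNRF2 (0.56 ± 0.17, edgeR adjusted p = 0.0763). Whether its reads come from a transcript of its own or from a longer ACER2 transcript was not tested. ACER2 was chosen with its differences known, so the p-values of AL158206.1 are no independent evidence. On the other side, RPS6 differed from shControl by -0.07 to 0.12 on the log2 scale, with no call (edgeR adjusted p = 0.733 in shNRF2, 0.389 in shUTX and 0.637 in shMLL1).

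ACER1, the ceramidase of the endoplasmic reticulum that is best known from epidermis, had 1 count in all 12 libraries together, in the untreated shUTX library. It was at 0 in the other 11 libraries, and no difference between derivatives was detectable at this depth. A low level of ACER1 and a name that does not match its reads cannot be told apart here.

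The DNA before the ceramidase genes is shown for the member detected in every library and for the nearly undetected one. Whether CpG sites bear on the level of either gene was not tested. ACER2 has 25 CpG sites in the 250 bases before its RefSeq start, and 78.4% of the 35116 RefSeq promoters of that length have fewer. ACER1 has 7 CpG sites, and 41.1% of promoters have fewer; the median is 11. CpG sites are in capitals below, 5′ to 3′ on the strand of the gene (RefSeq, GRCh38.p14), and only the bases outside the GENCODE gene are printed, which is 250 for ACER2 (chr9:19408759-19409008, plus strand) and 233 for ACER1 (chr19:6333630-6333862, minus strand). RefSeq also extends ACER1 to 6360368, beyond the start used here.
ACER2: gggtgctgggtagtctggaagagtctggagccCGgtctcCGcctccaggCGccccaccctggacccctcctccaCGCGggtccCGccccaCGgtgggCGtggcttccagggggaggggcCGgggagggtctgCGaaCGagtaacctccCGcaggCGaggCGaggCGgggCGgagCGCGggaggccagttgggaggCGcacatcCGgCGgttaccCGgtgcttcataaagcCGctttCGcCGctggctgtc
ACER1: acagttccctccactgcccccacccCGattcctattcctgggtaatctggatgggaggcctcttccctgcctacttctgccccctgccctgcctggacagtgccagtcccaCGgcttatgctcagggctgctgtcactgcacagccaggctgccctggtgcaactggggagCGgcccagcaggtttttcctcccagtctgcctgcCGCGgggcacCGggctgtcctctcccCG

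AQP3 was the most abundant of the genes, with 1160 to 3198 counts per library. In shNRF2 cells it stood at 307.8 (H2O2), 406.4 (CeO2) and 371.9 CPM (untreated), and in shUTX cells at 243.8, 241.3 and 222.9 CPM in the same order of exposures. In shMLL1 cells the values were 230.2 (H2O2), 252.3 (CeO2) and 277.0 CPM (untreated), and in shControl cells 197.2 (H2O2), 212.6 (CeO2) and 291.1 CPM (untreated). All 3 shNRF2 libraries were above every other library, and the other 3 derivatives overlapped. The lowest shNRF2 library (307.8 CPM) was close to the untreated shControl library (291.1 CPM). The share of all entries that separate in this way was not counted. Against shControl alone, 10.2% of the 10800 entries lay above it without overlap in shNRF2.

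AQP3 averaged 362 ± 50.0 CPM in shNRF2, 236 ± 11.4 CPM in shUTX and 253 ± 23.4 CPM in shMLL1, against 234 ± 50.4 CPM in shControl (SD, n = 3 each). The log2 difference from shControl was 0.64 ± 0.12 in shNRF2 (1.56-fold), 0.03 ± 0.12 in shUTX and 0.12 ± 0.12 in shMLL1 (SE). Leaving out 1 library at a time, the shUTX value ran from -0.108 (without shUTX H2O2) to 0.177 and the shMLL1 value from 0.0311 (without shControl CeO2) to 0.273, both highest without untreated shControl. In shUTX the pairs lay on both sides of 1: the ratio to the shControl library was 1.24 after H2O2 and 1.14 after CeO2, but 0.766 in the untreated pair. In shNRF2 the ratio was above 1 in all 3 pairs, at 1.56 (H2O2), 1.91 (CeO2) and 1.28 (untreated).

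The neighbours of AQP3 had other patterns. NOL6, a nucleolar protein gene 13.8 kb away, averaged 483 ± 27.6 CPM in shNRF2, 687 ± 4.13 CPM in shUTX and 602 ± 24.2 CPM in shMLL1, against 413 ± 11.4 CPM in shControl (SD, n = 3 each). It rose in shUTX (log2 difference 0.74 ± 0.07 SE, edgeR adjusted p = 7.27e-06) and in shMLL1 (0.55 ± 0.07, edgeR adjusted p = 0.000195), the derivatives in which AQP3 overlapped shControl. NFX1, 70 kb on the other side, had log2 differences of 0.01 to 0.20 and none passed the test (edgeR adjusted p = 0.962 in shNRF2, 0.0757 in shUTX and 0.335 in shMLL1). Removing a trend with transcript length and GC content, described with the AQP3 response, brought NFX1 in shMLL1 (0.26, edgeR adjusted p = 0.00164) and NOL6 in shNRF2 (0.28, edgeR adjusted p = 0.00331) past the threshold.

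**Figure D2:**
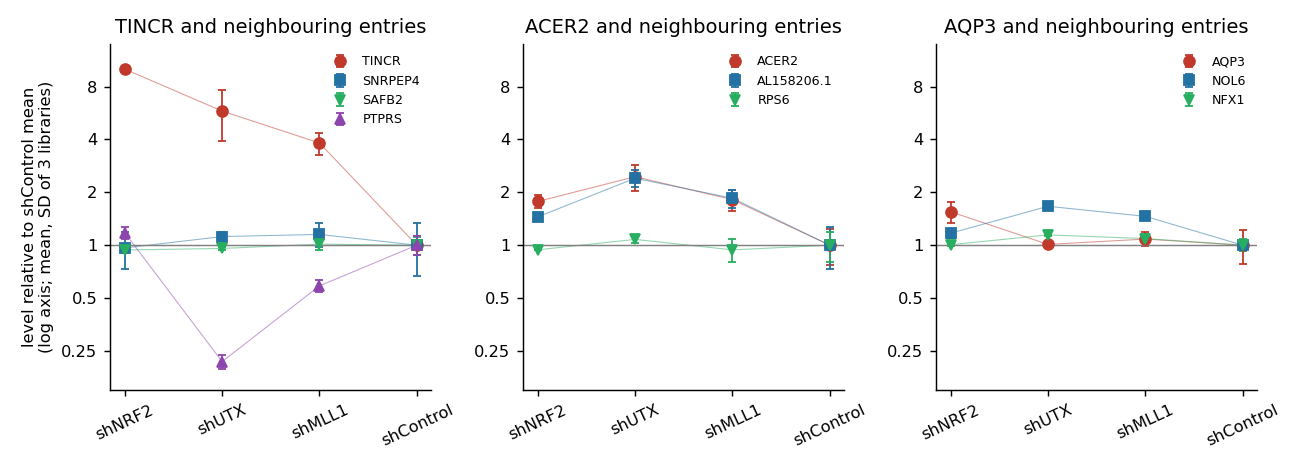
Mean level relative to the shControl mean (vertical log axis) of TINCR, ACER2 and AQP3 and of the tested entries next to them, by derivative; whiskers are the SD of 3 libraries. SNRPEP4 and SAFB2 stay near 1 where TINCR reaches 10.1 times its shControl mean, AL158206.1 runs close to ACER2, and NOL6 is highest in shUTX, where AQP3 is level with shControl.

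AQP7, the second aquaglyceroporin, had 15 counts in total, with 0 to 4 counts per library. It had 7 counts over the 3 shNRF2 libraries, 2 over those of shUTX and 1 over those of shMLL1, against 5 over those of shControl. It was at 0 in 5 of the 12 libraries, and no library exceeded 0.567 CPM, so no order of the derivatives can be read from it.

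The sequences before the channel genes are shown in the same way, and a link with their levels was not tested either. AQP3 has 23 CpG sites in its 250 bases, with 74.2% of promoters having fewer, and AQP7 has 5, with 34.3% having fewer. The bases outside the GENCODE gene are 210 for AQP3 (chr9:33447634-33447843, minus strand), which hold 20 of its CpG sites, and 136 for AQP7 (chr9:33402683-33402818, minus strand), which hold 1; CpG sites are in capitals.
AQP3: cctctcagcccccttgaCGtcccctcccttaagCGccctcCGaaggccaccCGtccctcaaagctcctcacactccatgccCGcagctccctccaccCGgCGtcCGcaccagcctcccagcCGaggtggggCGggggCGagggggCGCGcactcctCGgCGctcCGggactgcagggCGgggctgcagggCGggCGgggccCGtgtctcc
AQP7: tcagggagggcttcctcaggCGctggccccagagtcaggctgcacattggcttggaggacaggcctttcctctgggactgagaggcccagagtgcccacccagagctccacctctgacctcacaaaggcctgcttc

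Motifs were searched on both strands of the full 250 bases of these 4 promoters. The GC box GGGCGG was present at 4 positions before AQP3 and at 2 before ACER2, with none before ACER1 or AQP7; 42.6% of all promoters hold it. TATAAA was present once, 32 bases before the AQP3 start and inside the GENCODE gene model, and 10.7% of promoters hold it; it overlapped no GC box. The antioxidant response element core TGACNNNGC (10.9% of promoters), the AP-1 motif TGANTCA (6.57%) and the Grainyhead motif AACCNGGTT (0.202%) were in none of the 4 windows, which says only that these letters are not there. TINCR was not in the promoter table and has no sequence here.

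**Figure D3:**
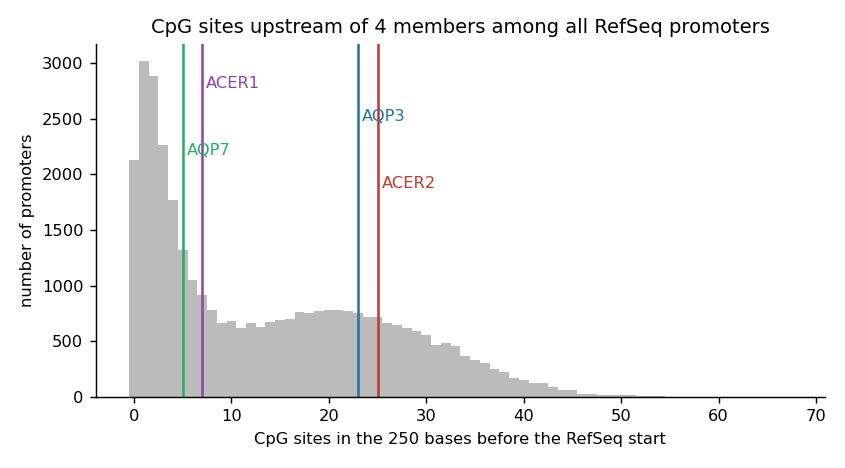
Number of RefSeq promoters (vertical axis) by the number of CpG sites in the 250 bases before the start (horizontal axis), with a line for each of 4 genes. ACER2 (25 sites) and AQP3 (23 sites), detected in every library, fall in the broad upper range, and ACER1 (7) and AQP7 (5), at 0 in 11 and 5 libraries, below the median of 11. A link between CpG sites and level was not tested.

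Exposure to H2O2 for 24 h was tested with the 4 derivatives as blocks. ACER2 was higher after H2O2 in all 4 derivatives, which held for 13.2% of all entries tested. Its ratio to the untreated library was 1.17 in shNRF2 (95% counting interval 0.921 to 1.48), 1.33 in shUTX (1.07 to 1.66), 1.31 in shMLL1 (1.03 to 1.66) and 1.57 in shControl (1.15 to 2.17). The interval excluded 1 in shUTX, shMLL1 and shControl and not in shNRF2. The log2 difference was 0.41 ± 0.11 (SE, 1.33-fold), with an unadjusted p of 0.00224 and an adjusted p of 0.135 (edgeR), so it did not pass the threshold over all entries.

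None of the 3 genes tested was called after H2O2, and neither was any of the 10800 entries (0%); 2102 entries (19.5%) had an unadjusted p under 0.05 in edgeR, and DESeq2 called 124 and limma-voom 0. TINCR changed by 0.23 ± 0.14 on the log2 scale (edgeR adjusted p = 0.376), and by 0.0289 without the shUTX H2O2 library and 0.0981 without untreated shUTX. Its derivatives did not move alike. The ratio to the untreated library was 1.66 in shUTX (95% counting interval 1.36 to 2.03) and 1.18 in shMLL1 (0.947 to 1.48), against 0.938 in shNRF2 (0.816 to 1.08) and 0.919 in shControl (0.599 to 1.41). The other 2 shUTX libraries, at 29.02 (CeO2) and 30.2 CPM (untreated), lay close together. AQP3 changed by -0.25 ± 0.10 (edgeR adjusted p = 0.206), lower in shNRF2, shMLL1 and shControl and higher in shUTX; without untreated shControl the value was -0.142.

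After CeO2 nanoparticles, none of the 3 genes was called, against 2 of the 10800 entries (0.0185%). The log2 difference was 0.10 ± 0.11 for ACER2 (edgeR adjusted p = 0.673), -0.14 ± 0.14 for TINCR (edgeR adjusted p = 0.604) and -0.09 ± 0.10 for AQP3 (edgeR adjusted p = 0.660). TINCR was lower than untreated in all 4 derivatives, by ratios of 0.780 to 0.962 whose counting intervals all included 1; 11.2% of all entries were lower in all 4.

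**Figure D4:**
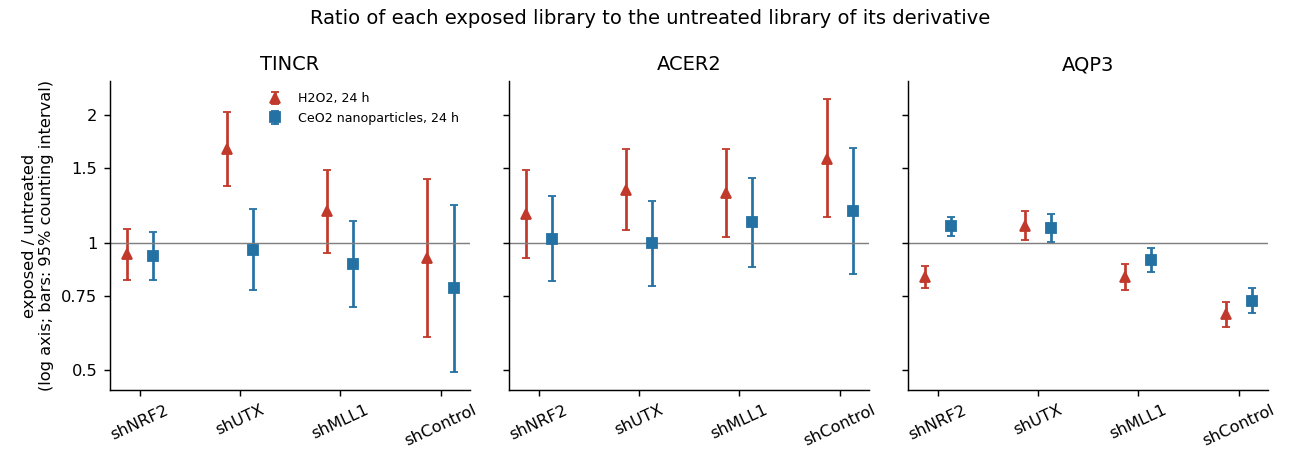
Ratio of each exposed library to the untreated library of the same derivative (vertical log axis) for TINCR, ACER2 and AQP3; bars are exact 95% intervals that cover counting error only. ACER2 after H2O2 lies above 1 in all 4 derivatives, the TINCR ratio of 1.66 in shUTX stands apart, and AQP3 is lowest in shControl.

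The response of AQP3 differed between derivatives. After H2O2 and CeO2 its ratio to the untreated library was 0.828 and 1.09 in shNRF2, 1.09 and 1.08 in shUTX and 0.831 and 0.911 in shMLL1, against 0.677 and 0.730 in shControl. In an exploratory model of exposure to either agent, the log2 response was 0.63 ± 0.15 above that of shControl in shUTX (SE, edgeR adjusted p = 0.00702) and 0.44 ± 0.14 above it in shNRF2 (edgeR adjusted p = 0.0402). In shMLL1 it was 0.31 ± 0.15 above (edgeR adjusted p = 0.311). AQP3 was thus the 1 gene of 3 called in shUTX, where 14.4% of all entries were called, and in shNRF2, where 16.6% were; none was called in shMLL1, where 0.648% were. These comparisons share the single untreated shControl library, which holds the highest AQP3 level outside shNRF2 (291.1 CPM) and cannot be left out.

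In shControl, the ratios of the exposed libraries to that library varied with transcript length in many genes. With 1 library per combination, an unusual untreated library and a response of shControl cells to exposure cannot be told apart. Over 349 coding genes of the matched stretches, the median log2 ratio to the untreated shControl library was -0.43 after H2O2 and -0.52 after CeO2 for the 116 genes with the shortest transcripts (up to 2587 bases). For the 117 genes with the longest transcripts (from 4250 bases) it was 0.01 and 0.05. The AQP3 transcript, at 2911 bases, falls in the group between, where the medians were -0.22 and -0.27; its own log2 ratios were -0.56 and -0.45. In shMLL1 the group with the shortest transcripts had -0.20 and -0.16, and in shUTX and shNRF2 the medians of all 3 groups were between -0.03 and 0.04. RPS6 had ratios of 0.761 (H2O2) and 0.697 (CeO2) in shControl, against 0.908 and 0.990 in shUTX.

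With a smooth trend on transcript length and GC content taken out of each library, an alternative chosen after seeing the data and fitted on these 349 genes, the AQP3 calls were lost. The response relative to shControl was then 0.30 ± 0.14 in shUTX (edgeR adjusted p = 0.228) and 0.07 ± 0.13 in shNRF2 (edgeR adjusted p = 0.802). On the same 349 genes without that step they were 0.63 ± 0.15 (edgeR adjusted p = 0.00465) and 0.44 ± 0.14 (edgeR adjusted p = 0.0213). The number of genes called also differed: 33 of 349 (9.46%) in shUTX and 34 (9.74%) in shNRF2 with the step, against 130 and 148 without it. The same step moved ACER2 after H2O2 the other way, to 0.54 ± 0.12 with an adjusted p of 0.0194 (edgeR), against 0.41 ± 0.10 and 0.123 without it; 25 of the 349 genes (7.16%) were then called after H2O2, against 0 without it. The differences of TINCR and ACER2 from shControl moved little. For TINCR they became 3.42 in shNRF2, 2.63 in shUTX and 1.97 in shMLL1, and for ACER2 0.89, 1.27 and 0.93 in that order. Those of AQP3 became 0.73 ± 0.08, 0.15 ± 0.08 and 0.18 ± 0.08 (SE) in the same order. Without the step the AQP3 differences were 0.64, 0.03 and 0.12.

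Among the planned settings, the shUTX call for AQP3 was kept in 10 of 10 and the shNRF2 call in 6 of 10. None of these settings leaves out the untreated shControl library, on which both values rest. Those that drop a library outside the comparison could hardly move the value itself. The shNRF2 call was lost with DESeq2 (adjusted p = 0.105), without the shNRF2 CeO2 library (0.28 ± 0.14, edgeR adjusted p = 0.224), without the shMLL1 H2O2 library (edgeR adjusted p = 0.069) and without the shMLL1 CeO2 library (edgeR adjusted p = 0.0698). For TINCR and ACER2 no difference in response was called: those of TINCR were between 0.16 and 0.60 with SEs of 0.36 to 0.38, those of ACER2 between -0.32 and -0.18 with SEs of 0.28.

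**Figure D5:**
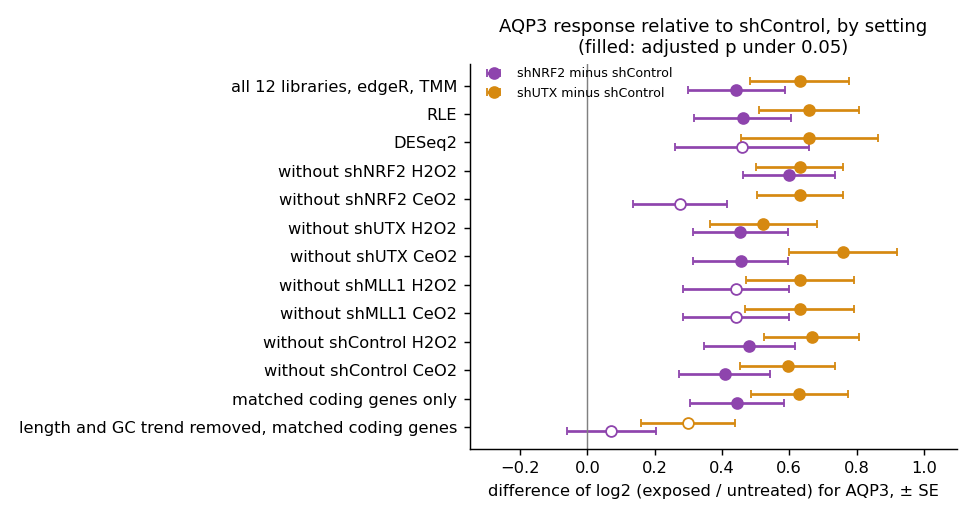
Difference of the AQP3 log2 response from that of shControl (horizontal axis, with SE) for shNRF2 and shUTX under each setting (rows); filled symbols have an adjusted p under 0.05. The shUTX values lie between 0.52 and 0.76 in all rows but the last; in that row, with the trend with length and GC removed, shNRF2 stands at 0.07 and shUTX at 0.30.

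Across the 12 libraries, TINCR and ACER2 had a Pearson r of 0.77 on log2(CPM + 1), TINCR and AQP3 0.63 and ACER2 and AQP3 0.01. These are descriptions: the libraries fall into 4 derivatives, and all genes share their libraries. Of 340 other genes in the matched stretches, those most like TINCR were DCAF12 (r = 0.75), the transcription factor gene ONECUT3 (0.74) and CRACR2B (0.70). ONECUT3 averaged 11.5 CPM in shNRF2, 19.4 CPM in shUTX and 2.83 CPM in shMLL1, against 2.54 CPM in shControl, so it did not share the TINCR difference in shMLL1. DCAF12, a substrate receptor of a ubiquitin ligase, was also the most like ACER2 (r = 0.94), with a narrow range of means: 289 CPM in shNRF2, 309 CPM in shUTX and 287 CPM in shMLL1, against 258 CPM in shControl. AL158206.1 (0.87) and FOCAD (0.84) came next for ACER2. The genes most like AQP3 were TJP3 (0.87), GADD45B (0.72) and FARS2 (0.65).

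Other barrier genes were read from lists of 45 ceramide and sphingolipid genes, 12 further aquaporins and 35 genes of epidermal differentiation and the skin surface. Only 10 of these 92 genes lie in matched stretches (2, 0 and 8), and 8 passed the filter. The lists were drawn up with earlier results of these data known, so the calls below describe these libraries and are no independent evidence of a direction. CCL27, a skin chemokine, had no count, and IFNK, the keratinocyte interferon, had 9 counts in all. In shNRF2, 1 of 8 rose and 0 fell (2.78% and 2.56% of all entries), and the median log2 difference of the 8 was -0.05, against 0.01 over all entries. In shUTX, 0 rose and 4 fell (12.6% and 13.7% of all entries), with a median of -0.45, against 5.47e-05 over all entries. In shMLL1, 0 rose and 2 fell (5.38% and 6.84%), with a median of -0.19, against 0.01 over all entries; no gene of the 8 was called after either exposure. With the trend with length and GC removed, 2 rose and 2 fell in shNRF2, 0 rose and 4 fell in shUTX, and 0 rose and 4 fell in shMLL1; in that setting 29.8% of the 349 genes were called in shNRF2, 59.9% in shUTX and 56.7% in shMLL1.

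TJP3, which encodes the tight junction protein ZO-3, averaged 53.3 ± 11.05 CPM in shNRF2 and 22.3 ± 3.51 CPM in shUTX, against 33.95 ± 10.2 CPM in shControl (SD, n = 3 each). It rose in shNRF2 (log2 difference 0.66 ± 0.18 SE, edgeR adjusted p = 0.0493) and fell in shUTX (-0.58 ± 0.20, edgeR adjusted p = 0.0423). Like AQP3, it was lower after exposure in shControl, with ratios of 0.565 (H2O2) and 0.679 (CeO2). The TJP3 calls were kept in 5 of 18 other planned settings in shNRF2 and in 11 of 18 in shUTX, with adjusted p-values up to 0.215 and 0.218 in edgeR. With the trend removed, the shUTX value was -0.41 (edgeR adjusted p = 0.0531) and the shNRF2 value was 0.75 (edgeR adjusted p = 0.00208). PRSS3, a trypsin-family protease, averaged 8.09 ± 2.25 CPM in shUTX and 8.60 ± 0.957 CPM in shMLL1, against 16.9 ± 2.83 CPM in shControl, and fell in both (log2 differences -1.07 ± 0.21 and -0.97 ± 0.21, edgeR adjusted p = 0.00186 and 0.00592 in that order), in 18 of 18 other planned settings each.

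HMGCS1, an enzyme of cholesterol synthesis, fell in shMLL1 to 257 ± 8.33 CPM, against 530 ± 43.5 CPM in shControl (log2 difference -1.04 ± 0.09 SE, edgeR adjusted p = 3.58e-06). With the trend removed, HMGCS1 was also called lower in shNRF2 (-0.26, edgeR adjusted p = 0.015) and in shUTX (-0.26, edgeR adjusted p = 0.00585). In that setting PRSS3 was also called lower in shNRF2 (-0.46, edgeR adjusted p = 0.0299). PLIN3, a lipid droplet coat protein, fell in shUTX to 309 ± 10.8 CPM, against 465 ± 67.2 CPM in shControl (-0.58 ± 0.09, edgeR adjusted p = 0.000389). PKP3, a desmosome plaque protein, fell in shUTX to 1627 ± 13.7 CPM, against 2043 ± 435 CPM in shControl (-0.32 ± 0.11, edgeR adjusted p = 0.0380), a call kept in 9 of 18 other planned settings and lost without the untreated shControl library, among others; with the trend removed the value was -0.09 (edgeR adjusted p = 0.0471). In the same setting PKP3 was also called lower in shMLL1 (-0.18, edgeR adjusted p = 0.00132) and higher in shNRF2 (0.11, edgeR adjusted p = 0.0421). CD151, a tetraspanin of the hemidesmosome, and the sphingolipid genes GBA2, a glucosylceramidase, and S1PR4, a sphingosine-1-phosphate receptor, were not called in any derivative in the fit of all 12 libraries. CD151 was called in 3 of 18 other planned settings in shUTX, in 2 of 18 in shMLL1, and in shMLL1 with the trend removed (-0.22, edgeR adjusted p = 0.000509). GBA2 averaged 127 ± 5.17 CPM in shNRF2, 129 ± 2.52 CPM in shUTX and 127 ± 6.31 CPM in shMLL1, against 128 ± 2.12 CPM in shControl.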

How the data were processed

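RNA was measured in 12 HaCaT libraries. The submitters' processing notes list HTSeq 0.11.1, SAMtools 1.12, HISAT2 2.2.1, Trimmomatic 0.39 and the build GRCh38; settings, strand use and annotation were not given in the sources used here. Raw counts for each Ensembl gene were deposited by the authors as 2 tables, whose untreated columns differ in 1 cell; those of the H2O2 table were used. Of 61498 entries, 61399 matched a gene name and 58298 matched GENCODE 29.

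Matched stretches were found with a hidden Markov model of 2 states along housekeeping genes of at least 30 CPM (probability 0.95 inside, 0.25 outside, switch 0.02), and kept with at least 3 such genes and a median of 150 CPM. Housekeeping families were added after a first panel left ACER1 outside. The members and lists were chosen with earlier results of these data known. Named were the 5 genes, the nearest tested entries, the 3 most alike coding or long non-coding entries of at least 5 CPM, and list genes in stretches.

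Entries with at least 1 CPM in 3 libraries were fitted with edgeR 4.0.16 (R 4.3.3; TMM, quasi-likelihood, two-sided, Benjamini-Hochberg over all 10800 entries) as derivative plus exposure (6 residual degrees of freedom), or with a response term per knockdown (3). The alternatives were other scalings and filters, DESeq2 1.42.0, limma 3.58.1 (voom), the other table's untreated counts, fewer libraries, each library left out and, added later, removal of a loess trend (span 0.75) on transcript length and GC. Ratio intervals are exact and conditional. The code was tested on simulated counts.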

Additional observations from a re-analysis of the deposited data

Results flagged for a closer look

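The response of AQP3 to exposure differed between derivatives by the test of that difference. Relative to shControl, the log2 response to either agent was 0.63 higher in shUTX and 0.44 higher in shNRF2. Both values rest on the single untreated shControl library, and neither passed the threshold once the trend with transcript length and GC content was removed.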

How the results depend on the processing

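No paired analysis by replicate number was possible because the labels give none and each combination has 1 library; the additive fits hold derivative and exposure as blocks. The knockdown differences of TINCR, ACER2 and AQP3 moved by less than the spread between libraries in 179 of 180 alternatives. Some alternatives could hardly move them, as they dropped a library outside the comparison or used untreated counts differing in 1 cell. The AQP3 difference in shUTX, 0.03 with an SD of 0.369 between pairs, changed sign to -0.108 without shUTX H2O2 and still counts as unmoved. Leaving out libraries in turn, the difference of TINCR in shNRF2 ran from 3.24 to 3.51.

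With the length and GC trend removed, genes called became 1 after H2O2 (ACER2), against 0, and 0 for the changed response in shUTX and 0 in shNRF2, against 1 each; DESeq2 also gave 0 in shNRF2, and leaving out libraries 0 to 1. The AQP3 difference after CeO2 changed sign to 0.0177 with the trend removed; leaving out libraries it ran from -0.191 to 0.0187, the last without untreated shControl. The TINCR difference in response in shNRF2 changed sign to -0.134 with the trend removed; leaving out libraries it ran from -0.111 (without shNRF2 CeO2) to 0.434. None of these 4 passed the threshold; the cause was not tested.

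Counts over all entries moved more. After H2O2 they were 0 in edgeR, 651 without a filter, 124 in DESeq2, 3 with only the libraries compared and 0 to 43 leaving out libraries. After CeO2 they were 2 in edgeR, 543 without a filter, 44 in DESeq2, 0 with a filter at 5 CPM, with limma-voom or with only the libraries compared, and 0 to 29 leaving out libraries. For the changed response they were 1794 in shNRF2 (673 in DESeq2, 1317 to 2327 leaving out libraries), 1554 in shUTX (658 in DESeq2, 822 to 2102) and 70 in shMLL1 (27 in DESeq2, 4 to 676). Against shControl they were 576 in shNRF2 (907 without a filter, 154 with only the libraries compared, 257 to 830 leaving out libraries), 2842 in shUTX (1427 with only the libraries compared, 1931 to 3088) and 1320 in shMLL1 (667 to 1941). Depth limits ACER1 and AQP7, whose counts allow no comparison. For ACER1, whether the name matches the reads was not tested beyond its place in a stretch. The calls of PTPRS, AL158206.1, NOL6, PRSS3, HMGCS1 and PLIN3 named above were kept in 18 of 18 planned settings each. Those of AL158206.1 are not independent of the choice of ACER2. PRSS3, HMGCS1 and PLIN3 come from lists drawn up with earlier results of these data known, so their calls are no independent evidence either.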
